A study of Mus musculus with 20 samples.

Results

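Macrophage marker genes were examined in RNA from sorted sensory neurons, as 10 genes of the 37620 listed in the table: Aif1, Cd68, Csf1r, Ptprc, Cx3cr1, C1qa, C1qb, C1qc, Mrc1 and Mpeg1. They were matched by Ensembl identifier, and all 10 were found. The libraries came from dorsal root ganglia (DRG) of mice aged 6 to 8 weeks that were homozygous for Trpv1tm2Bbm, an allele that places the reporters PLAP and nuclear LacZ under the Trpv1 locus. Every group carried this allele and none was treated, so there is no wild-type library among them. Ganglia of the lumbar level (L4-5) and of the sacral level (L6-S1) of 5 male and 5 female donors were kept apart, so the 20 libraries form 4 groups of 5 (male lumbar, male sacral, female lumbar and female sacral). Dissociated cells were loaded with DDAOG, a substrate that β-galactosidase turns into the far-red dye DDAO, and the brightest DDAO-positive cells were sorted by flow cytometry. The sort selected on the reporter and used no antibody against blood cells. Each donor label carries 2 animal numbers where the study's methods speak of individual mice, so whether a donor is 1 mouse or a pool of 2 is not clear, and p-values measure the spread between these donors.

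Macrophages are tissue-resident phagocytes, and in DRG they sit around the neuronal cell bodies beside the satellite glia. They depend on Csf1r, the receptor for CSF1 and IL-34, and they respond to nerve injury by proliferating and changing shape. Many of them make the chains of C1q, which starts the classical complement pathway, and express Cx3cr1, the receptor for the neuronal chemokine fractalkine, and Mrc1, the mannose receptor that marks perivascular and other resident macrophages.

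The 10 genes had means below that of the median gene. Values are log2 RPKM, that is the base-2 logarithm of reads per kilobase of exon scaled to library size, and each library has the same median of 0.93 over its genes. Averaged over the libraries with a value, Cd68 stood highest at 0.63 ± 0.81 (SD, n = 20), followed by C1qb at 0.42 ± 1.0 (n = 20) and Csf1r at -0.76 ± 1.04 (n = 20). Cd68 and C1qb were not apart by more than their spread, and C1qb and Csf1r were apart by little more than the SD of either. The order then ran through Mrc1 (-1.27), Mpeg1 (-1.46), C1qc (-1.57 over 18 libraries), Aif1 (-1.58) and Ptprc (-2.97) to C1qa (-2.98 over 13) and Cx3cr1 (-3.84 over 13). Libraries held 43910127 to 66411923 reads recovered from the deposited values, and the 10 genes together took 261 to 2441 of them. Neuronal genes were far higher in the same libraries, with means over 20 libraries of 9.90 log2 RPKM for Calca and 8.66 for Snap25.

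Empty cells were frequent for only 3 of the genes. An empty cell is a gene to which no read of that library was assigned, and there were 16 of them among the 200 gene and library combinations, 4 of 100 in lumbar and 12 of 100 in sacral libraries. Cx3cr1 was empty in 7 libraries, 2 lumbar and 5 sacral. C1qa was also empty in 7, 2 lumbar and 5 sacral. C1qc was empty in 2 sacral libraries, male 1 and female 3, and the other 7 genes had a value in each of the 20. At these depths an empty cell allows a level of up to 0.0472 to 0.0683 RPM (recovered reads over all recovered reads of the library, without the further scaling of the deposited RPKM), taking 3 reads as the limit that a count of 0 leaves, for counting error only.

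**Figure D1:**
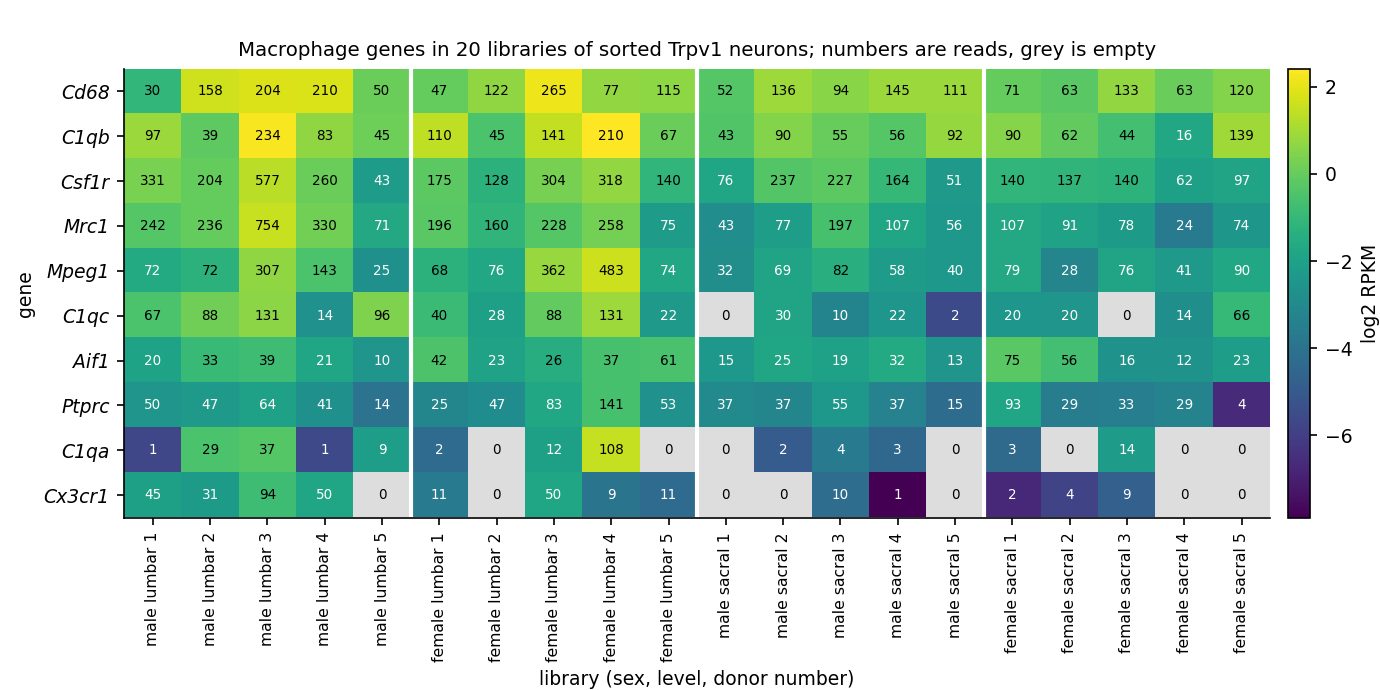
Level of each of the 10 genes (vertical axis, ordered by mean) in each of the 20 libraries (horizontal axis, by sex, level and donor number), with colour for log2 RPKM, the recovered number of reads printed in each cell and grey for empty cells. The brightest columns are male lumbar 3 and female lumbar 4, and 12 of the 16 grey cells are sacral.

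The comparison of the levels asks whether these transcripts differed between lumbar and sacral Trpv1 neuron sorts. They stood higher in lumbar libraries: Csf1r, C1qc, Mrc1 and Mpeg1 passed the test, C1qb and Cd68 did not, and the other 4 genes were too low to enter it. The 4 that passed rose by 1.11 to 2.08 on the log2 scale. All comparisons of levels between genes that follow use log2 RPKM, which is per length. Genes entered the test when their mean was above -1 in at least 1 group with at least 3 values, which 6 of the 10 genes did. The test was limma on the deposited values with donor as a random block and Benjamini-Hochberg adjustment over 16304 genes. Over all genes it called 45.5%, with 15.2% higher in lumbar and 30.3% higher in sacral libraries, so the background for the 4 of 6 macrophage genes called higher in lumbar is 15.2%. Nothing is read from that count, because all 4 (Csf1r, C1qc, Mrc1 and Mpeg1) passed the filter through lumbar groups alone, with means below -1 in both sacral groups, while Cd68 and C1qb passed at both levels and were not called. No macrophage gene was called higher in sacral libraries. The median log2 difference of the 6 was 1.25 and that of all 16304 genes was -0.11. Nothing is read from the median of the 6 either, since 4 of them passed through lumbar groups alone. Cd68 and C1qb, which passed at both levels, differed by 0.47 and 0.90. In bulk libraries such as these, fewer cells of a type and less of its RNA per cell cannot be told apart.

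Mrc1 (ENSMUSG00000026712, mm9 chr2:14151041-14253684, plus strand), the mannose receptor, had the lowest adjusted p of the 10. Its lumbar libraries ran from -2.20 through a median of -0.25 to 1.53 log2 RPKM, on 71 to 754 reads. Its sacral libraries ran from -3.59 through -2.22 to -0.58, on 24 to 197 reads. The groups overlapped, since male sacral 3 stood above several lumbar libraries, but in each of the 10 donors the lumbar library was the higher of the pair. The smallest gap was in female 5 (0.24) and the largest in female 4 (3.85). The difference was 1.79 ± 0.37 (SE) with an adjusted p of 0.00057 (limma), and the exact sign-flip permutation test over the 10 pairs, two-sided, gave p = 0.00195, the smallest that 10 pairs can give.

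Csf1r (ENSMUSG00000024621, chromosome 18, plus strand), the receptor on which macrophages depend for survival, held 2480 lumbar and 1331 sacral reads. Lumbar values were -2.19, 0.02 and 1.33 log2 RPKM at the lowest, median and highest library, and sacral values were -2.33, -1.21 and -0.19. Single libraries held 43 to 577 reads in lumbar and 51 to 237 in sacral. Male donor 5 had the lowest library of both levels, and 9 of 10 donors were higher in lumbar, female 2 being the exception at -0.10. The log2 difference was 1.11 ± 0.35 (SE, limma adjusted p = 0.013), and the exact sign-flip test gave p = 0.00391. Without female donor 4 it fell to 0.91 ± 0.37 and the adjusted p was 0.053. Csf1r shares 871 exonic bases with Hmgxb3 on the opposite strand, whose mean was 1.10 log2 RPKM. Nothing states that reads were counted by strand, so the Csf1r values are uncertain to that extent.

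Cx3cr1 (ENSMUSG00000052336, mm9 chr9:119957811-119977400, minus strand), the fractalkine receptor, was the most unequal of the 10 by reads. The 10 lumbar libraries held 301 reads on it and the 10 sacral libraries 26. In lumbar, 8 libraries had a value, from -4.29 through -2.15 to -0.80 log2 RPKM, and male 3 alone held 94 reads. In sacral, 5 had a value, from -7.89 through -5.78 to -4.21, on at most 10 reads. Only 4 donors had a value at both levels, and all 4 were higher in lumbar by 2.90 to 6.08. With 4 pairs the exact test cannot go below p = 0.125, which it gave. Of the other 6 donors, 4 were empty in sacral alone, 1 in lumbar alone and 1 at both levels. Cx3cr1 did not pass the filter, and with no filter and empty cells set to the value of 0.5 reads, an alternative chosen after seeing the data, its log2 difference was 3.51 ± 0.90 (limma adjusted p = 0.005, where 11.7% of 25027 genes were called higher in lumbar). That size depends on the value given to empty cells.

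**Figure D2:**
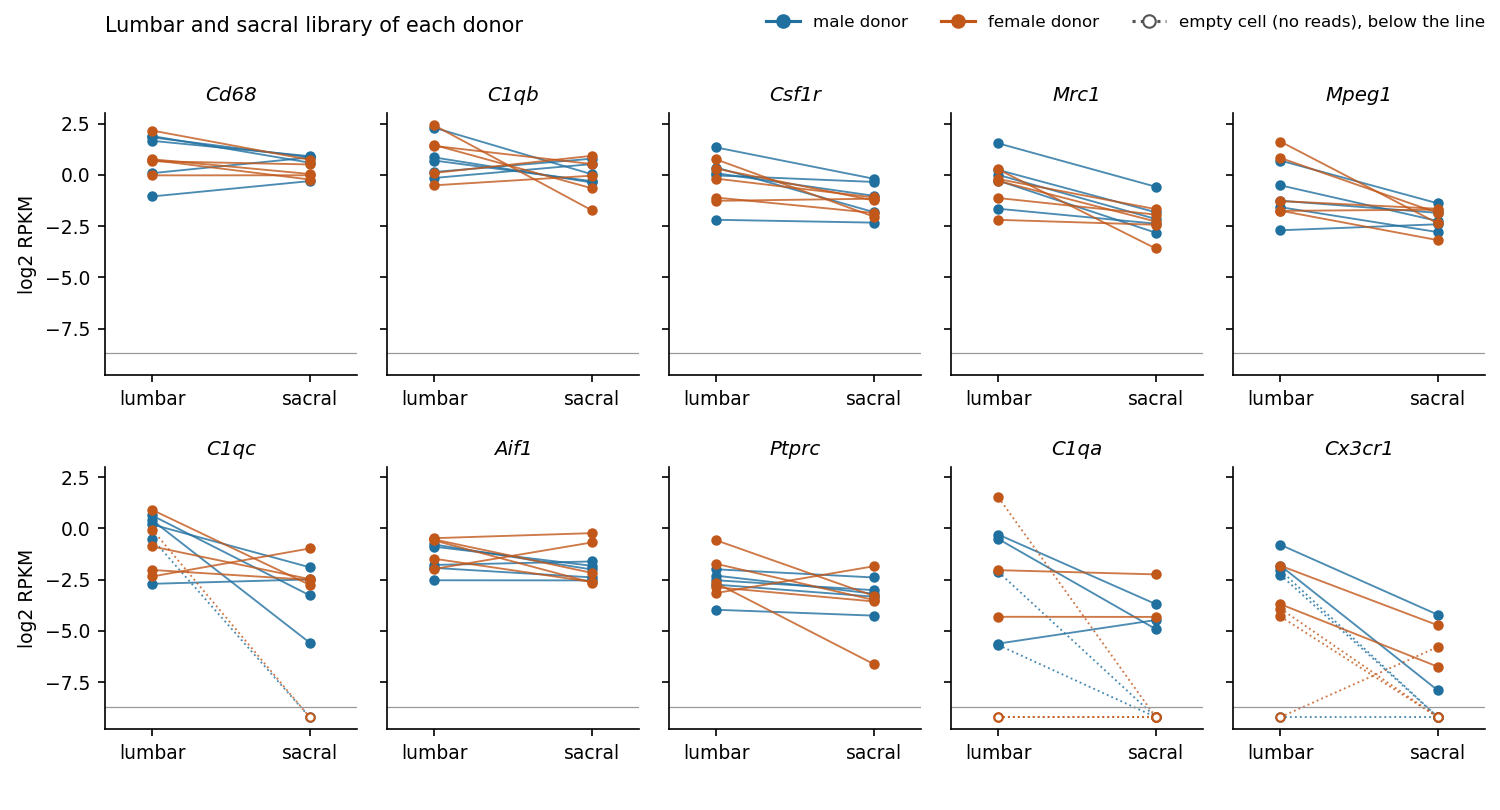
Lumbar and sacral log2 RPKM (vertical axis) of each gene, with 1 line per donor joining its 2 libraries, blue for males and orange for females; open symbols under the grey line are empty cells and carry no value. Mrc1 falls from lumbar to sacral in 10 of 10 donors and Csf1r in 9, while C1qb falls in 6.

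C1q is assembled from equal numbers of A, B and C chains, and the 3 genes lie next to each other on chromosome 4 on the minus strand, C1qa at mm9 chr4:136451832-136454718, C1qc at chr4:136445719-136448980 and C1qb at chr4:136436044-136442102. Their transcripts were measured at unequal levels. C1qb had the highest log2 RPKM of the 3 chains in 18 of 20 libraries and C1qc in 2, and C1qa was the lowest or empty in 18. The study's protocol amplified total RNA before the libraries were made, and its part in the unequal levels was not tested.

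C1qc (ENSMUSG00000036896), the C chain, showed the largest log2 difference of the 6 genes tested. Lumbar libraries ran from -2.70 through -0.28 to 0.90 log2 RPKM on 14 to 131 reads, and the 8 sacral libraries with a value from -5.57 through -2.50 to -0.98. The 10 sacral libraries held 184 reads in all, 66 of them in female 5, against 705 in lumbar. The difference was 2.08 ± 0.56 (SE, limma adjusted p = 0.0055), a fit that drops the 2 empty sacral cells. Of the 8 donors with both values, 6 were higher in lumbar and male 4 and female 5 were lower (exact sign-flip p = 0.0469). With empty cells at 0.5 reads, 8 of 10 donors were higher in lumbar and the exact p was 0.0117.

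C1qb (ENSMUSG00000036905), the B chain, did not pass the test. Lumbar values were -0.51, 0.77 and 2.41 log2 RPKM at the lowest, median and highest library, and sacral values were -1.73, -0.01 and 0.92. The log2 difference of 0.90 ± 0.37 (SE) had an adjusted p of 0.051 (limma). Donors split 6 to 4, with female 4 at 4.14 and the 4 donors that were higher in sacral between -0.47 and -0.83 (exact sign-flip p = 0.111). C1qa (ENSMUSG00000036887), the A chain, had 199 lumbar reads, 108 of them in female 4, and 26 sacral reads, 14 of them in female 3. Among the 5 donors with both values 4 were higher in lumbar, with gaps from -1.15 in male 4 to 4.39 in male 2 (exact sign-flip p = 0.312). C1qa was below the filter, and with no filter and empty cells at 0.5 reads its log2 difference was 2.08 ± 0.96 (limma adjusted p = 0.11).

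Mpeg1 (ENSMUSG00000046805, mm9 chr19:12535269-12539774, plus strand) encodes perforin-2, a pore-forming protein of the phagosome. In lumbar its libraries ran from -2.71 through -1.27 to 1.62 log2 RPKM, and 3 of them (female 4 with 483 reads, female 3 with 362 and male 3 with 307) stood far above the rest. Sacral libraries ran from -3.19 through -2.06 to -1.39, on 28 to 90 reads. The difference was 1.38 ± 0.43 (SE, limma adjusted p = 0.013), with 8 of 10 donors higher in lumbar and the other two, male 5 and female 5, at -0.29 and -0.06 (exact sign-flip p = 0.00781). Cd68 (ENSMUSG00000018774, mm9 chr11:69477715-69479655, minus strand), a lysosomal membrane glycoprotein, had the smallest log2 difference of the 6 genes tested. Its lumbar libraries ran from -1.05 through 0.74 to 2.16 log2 RPKM and its sacral libraries from -0.31 through 0.55 to 0.91. The sacral range lay inside the lumbar one, 7 of 10 donors were higher in lumbar, and the log2 difference of 0.47 ± 0.30 did not pass (limma adjusted p = 0.20, exact sign-flip p = 0.0879).

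Aif1 (ENSMUSG00000024397, mm9 chr17:35307936-35313013, minus strand) encodes IBA1, the actin-binding protein used to stain macrophages. It missed the filter narrowly, with a highest group mean of -1.01 log2 RPKM in lumbar females. It held 312 lumbar and 286 sacral reads, and 2 of its 3 highest read numbers were sacral (75 in female 1 and 56 in female 2). Fitted without the filter, its log2 difference was 0.57 ± 0.33 (limma adjusted p = 0.18), with 7 of 10 donors higher in lumbar. Ptprc (ENSMUSG00000026395, mm9 chr1:139959438-140071882, minus strand) encodes CD45, the phosphatase of nearly all white blood cells. It had 14 to 141 reads in lumbar and 4 to 93 in sacral libraries, the highest in female lumbar 4 and the lowest in female sacral 5. Without the filter its log2 difference was 1.04 ± 0.46 (limma adjusted p = 0.079), with 9 of 10 donors higher in lumbar (exact sign-flip p = 0.043). Fitted without the filter, 13.5% of 19612 genes were called higher in lumbar, and 4 of 8 macrophage genes were.

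**Figure D3:**
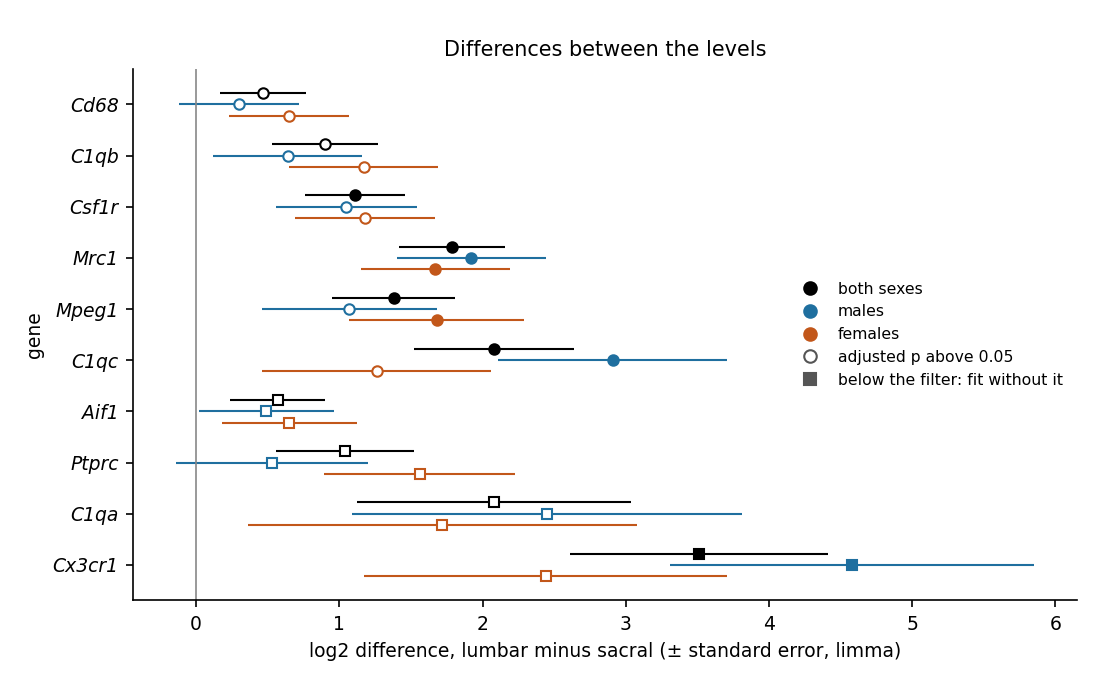
Log2 difference, lumbar minus sacral, with its limma standard error (horizontal axis) for each gene (vertical axis), over both sexes in black, in males in blue and in females in orange. Filled symbols have an adjusted p of at most 0.05, and squares are the 4 genes below the filter, fitted without it and with empty cells at 0.5 reads; all symbols lie to the right of 0, and those over both sexes run from 0.47 for Cd68 to 3.51 for Cx3cr1.

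Summed over the 10 genes and scaled to the reads of the library, the level was higher in the lumbar library of each donor. Lumbar libraries held 8.27 to 42.14 RPM on them, with a median of 16.56, and sacral libraries 4.75 to 15.45 with a median of 9.175. The ratio of lumbar to sacral had a median of 1.6 over donors. It reached 8.0 in female 4, while in male 5 and female 5 the 2 libraries were nearly equal (8.27 and 8.13, and 9.89 and 9.64). As a sum of RPKM, which differs both in scaling and in the division by length, it was higher in lumbar in 9 of 10 donors. Male lumbar 3 (42.14 RPM) and female lumbar 4 (38.01) stood above the other lumbar libraries. Of the 7 genes with a value in every library, 5 had their highest level in one or the other of these, and the remaining 2 in female lumbar 3 and female sacral 1.

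The calls rested in part on those 2 donors. With male 3 and female 4 both left out, an alternative chosen after seeing the data, Mrc1 alone of the 6 genes was called higher in lumbar (1.5 ± 0.35 log2, limma adjusted p = 0.0039), while 12.3% of all genes tested were. Csf1r (0.85, adjusted p = 0.078), C1qc (1.63, 0.063) and Mpeg1 (0.96, 0.089) kept their direction and missed the threshold, and C1qb fell from 0.90 to 0.32. Leaving out 1 donor at a time gave 3 to 5 called genes of 6, while 13.2% to 15.5% of all genes tested were called higher in lumbar.

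**Figure D4:**
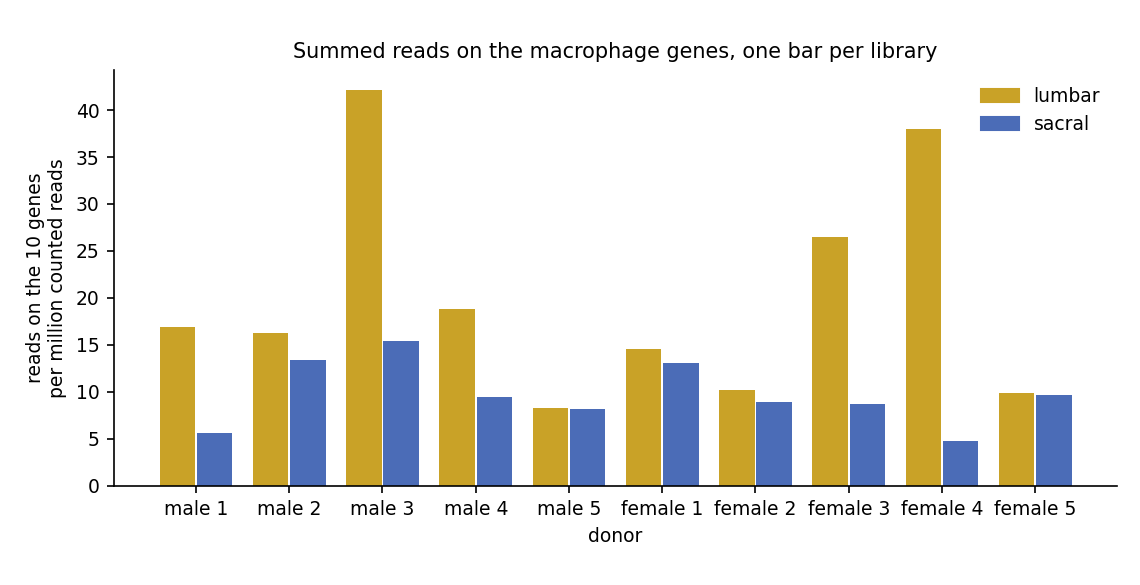
Summed level of the 10 genes in RPM, their share of the recovered reads (vertical axis, from 0) in the lumbar (gold) and sacral (blue) library of each donor (horizontal axis). The lumbar bar is the taller in 10 of 10 donors, from 8.27 against 8.13 in male 5 to 38.01 against 4.75 in female 4.

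Relative to the deposited scaling, TMM factors and total reads each shifted the medians of the macrophage genes and of all genes in the same direction. With TMM factors on recovered reads, the median log2 difference of all genes was 0.006 and 21.3% of genes were called higher in lumbar and 21.7% in sacral. With total reads the median was -0.428 and the shares were 8.71% and 58.2%. With TMM factors and with total reads, 5 and 4 of the 6 macrophage genes were called higher in lumbar and none in sacral. Their median differences were 1.32 and 0.92. Quantile normalization moved the medians in opposite directions, to -0.023 for all genes and 1.09 for the 6. It called 4 of the 6 higher in lumbar, where 18.7% of all genes were. Nothing is read from these counts and medians, because of the filter.

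The sexes were compared within each level, and the difference between levels was compared between the sexes. In males, C1qc (2.91 ± 0.80, limma adjusted p = 0.011) and Mrc1 (1.92 ± 0.52, 0.0098) were called higher in lumbar, where 9.39% of 16371 genes were. In females, Mrc1 (1.67 ± 0.52, adjusted p = 0.025) and Mpeg1 (1.68 ± 0.61, 0.047) were, where 8.11% of 16335 genes were. The female pair was fragile, since neither passed without female 3 or without female 4. Called in one sex and not in the other is no difference between the sexes: the sex by level interaction called 0 of the 6 genes (limma), at background 0.0% of 16304 genes with 658 of them at an unadjusted p under 0.05, and voom on recovered reads also called 0. The largest interaction among the 6 was that of C1qc, 1.65 ± 1.13 smaller in females (unadjusted p = 0.16). Between females and males, 0 of the 6 genes differed in lumbar (limma, background 0.0427%) or in sacral libraries (0.0368%), and the lowest unadjusted p among them was 0.22.

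The genes did not all vary together. Over the 20 libraries, which include both levels, Pearson's r of log2 RPKM was 0.89 for Csf1r with Mrc1, 0.81 for Csf1r with Mpeg1 and 0.76 for Mrc1 with Mpeg1. After the 4 group means were taken out these were 0.85, 0.77 and 0.74. Aif1 and Cd68 stood at the other end, with r = 0.12. C1qb followed Mpeg1 (0.75) and Mrc1 (0.71) more closely than Ptprc (0.31). These are descriptions of 20 libraries that share donors and an amplification step, in genes where low read numbers limit r.

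Among 17131 other genes with a value in every library, those most like the mean of the 7 fully measured macrophage genes were Abca9 (r = 0.849), a lipid transporter of the ABC family, Cd74 (0.842), the invariant chain of MHC class II, and AC139759.1 (0.831). Apcdd1, Lyz2, Sox13, Dab2, BC060267, Irak4 and Laptm5 followed, down to 0.806. Lyz2, a lysozyme of myeloid cells, and Laptm5, a lysosomal protein of blood cells, were on the fixed list of other macrophage genes. With the 4 group means taken out, the first were Cd74 (0.841), Abca9 (0.830) and the MHC class II genes H2-Aa (0.824), H2-Ab1 (0.821) and H2-Eb1 (0.813), followed by AC139759.1, Slc6a6, Hdc, Ets2 and Srsf5.

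Other genes of macrophages and of the pathways around them were counted from lists. For these counts, the shares over all 16304 genes were 15.2% called higher in lumbar and 30.3% called higher in sacral. Of 24 further macrophage genes, 11 were tested, 7 were called higher in lumbar and 3 higher in sacral. Tyrobp, Ctss, Laptm5 and Pf4 averaged above -1 in lumbar and below -1 in sacral libraries (-1.60, -2.29, -1.19 and -2.32). Nothing is therefore read from the count of those higher in lumbar. The 7 were Tyrobp, Ctss, Laptm5, Lyz2, Cd14, Pf4 and P2ry12. Ctss, a lysosomal cysteine protease of antigen-presenting cells, differed by 2.33, and Lyz2 by 1.72 on the log2 scale. Those higher in sacral included Lyve1 (-0.62) and Coro1a (-0.38, at a mean of 3.83 log2 RPKM), and with TMM factors none of the 3 was called. Microglial Siglech had a value in 5 libraries, Trem2 in 3 and the macrophage transcription factor PU.1, listed as Sfpi1, in 13.

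The ligands showed no common direction. Il34, one of the CSF1R ligands, was called higher in lumbar (1.01 log2), and Csf1, the other, was not called (-0.24). Cx3cl1, which encodes fractalkine, was not called (0.28), and Cd47, the signal that restrains phagocytosis, was called higher in sacral (-0.44). Of 10 complement genes tested, 5 were called higher in lumbar, among them C3 (1.39), C4b (1.10), Cfb (0.45) and Cd59a (0.25). C3 averaged below -1 in sacral libraries (-1.56 log2 RPKM). With total reads 3 were called higher in lumbar and 1 in sacral. Of 6 MHC class II genes, H2-Aa (1.22) and Cd74 (1.25) were called higher in lumbar and none in sacral, and neither was called without male 4, without female 3 or without female 4. Lysosomal genes that all cells use behaved otherwise. Of 8, Ctsb, Ctsd, Lgmn and Grn were called higher in sacral, by 0.28 to 0.43, and the count depended on the scaling, with 8 called higher in sacral by total reads and 2 in each direction by quantile normalization.

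Most tested marker genes of other cells of the ganglion were also called higher in lumbar libraries. Of all 16304 genes, 15.2% were called higher in lumbar and 30.3% in sacral. All 8 satellite glia genes tested were called higher in lumbar (median log2 difference 1.04), as were all 6 endothelial genes (1.02), 5 of 7 myelinating Schwann cell genes (0.87), 4 of 5 red cell genes (1.41) and 6 of 9 fibroblast and mural genes (1.07), of which Rgs5 was called higher in sacral. The summed RPKM of the satellite glia list was 1080 to 2580 in lumbar and 557 to 1190 in sacral libraries, and higher in lumbar in 10 of 10 donors. Endothelial sums were 9.26 to 66.5 and 7.13 to 32.7, Schwann cell sums 767 to 1680 and 728 to 1220, and red cell sums 1.14 to 16.8 and 0.523 to 6.95, also higher in lumbar in 10 of 10 donors. Fibroblast and mural sums, led by Rgs5 and Dcn, were higher in sacral in 7 of 10 donors. Of the red cell genes called, Hba-a1, Hba-a2 and Alas2 averaged above -1 in lumbar and below -1 in sacral libraries (-2.16, -1.90 and -2.15). Nothing is read from the red cell count for that reason. Single libraries did not always follow the macrophage genes. Male lumbar 3, with the highest macrophage level (42.14 RPM), had the lowest satellite glia sum of the lumbar libraries (1080). It also had the highest endothelial (66.5) and red cell (16.8) sums. The part of these other cells in the macrophage gene differences was not tested.

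Neuronal genes went the other way. All 6 on the list were called higher in sacral (median -0.53), where 30.3% of all genes were. Their summed RPKM was 824 to 1410 in lumbar and 1320 to 1770 in sacral libraries. The 10 macrophage genes summed to 4.15 to 19.41 and 2.26 to 5.29. Of 6 Trpv1 nociceptor genes, 4 were called higher in sacral, among them Trpv1 (-0.96), Scn10a and Gfra3, and Calca (0.16) and Tac1 (-0.10) were not called. The defining markers of the labelled neurons were thus present in the 20 libraries, and so was the satellite glia gene Fabp7, at a mean of 8.77 log2 RPKM.

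Other blood cells differed among themselves. Of the T and NK cell list, 56 of 80 lumbar and 56 of 80 sacral cells were empty, Cd3d, Cd3e and Cd3g had a value in 1 library each, Ncr1 had none, and the 1 gene tested, Lck, was not called (-0.18 log2). Of the B cell list, 31 of 50 lumbar and 28 of 50 sacral cells were empty, and no B cell gene was tested. Sums were 0.324 to 1.97 RPKM in lumbar and 0.438 to 1.02 in sacral for T and NK cells, and 0.198 to 0.802 and 0.120 to 0.549 for B cells. Dendritic cell sums were 1.20 to 3.04 and 1.86 to 2.52, and the 1 gene tested, Zbtb46, was not called. Mast cell sums ran from 0.0 to 10.8 in lumbar and to 0.606 in sacral, with neither of 2 genes called. With no filter and empty cells at 0.5 reads, 2 of 5 were called higher in lumbar, where 11.7% of all genes were. Neutrophil sums ran from 0.0 to 11.2 in lumbar and to 42.6 in sacral libraries. Only male sacral 1 (42.6) and male sacral 3 (23.9) lay above the highest macrophage gene sum of 19.41. By median the neutrophil sums were the lower, at 2.675 in lumbar and 2.505 in sacral libraries. The macrophage gene medians were 8.145 and 4.295. S100a8, S100a9 and Ngp were called higher in sacral over their libraries with a value, and none was called once empty cells were set to 0.5 reads.

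**Figure D5:**
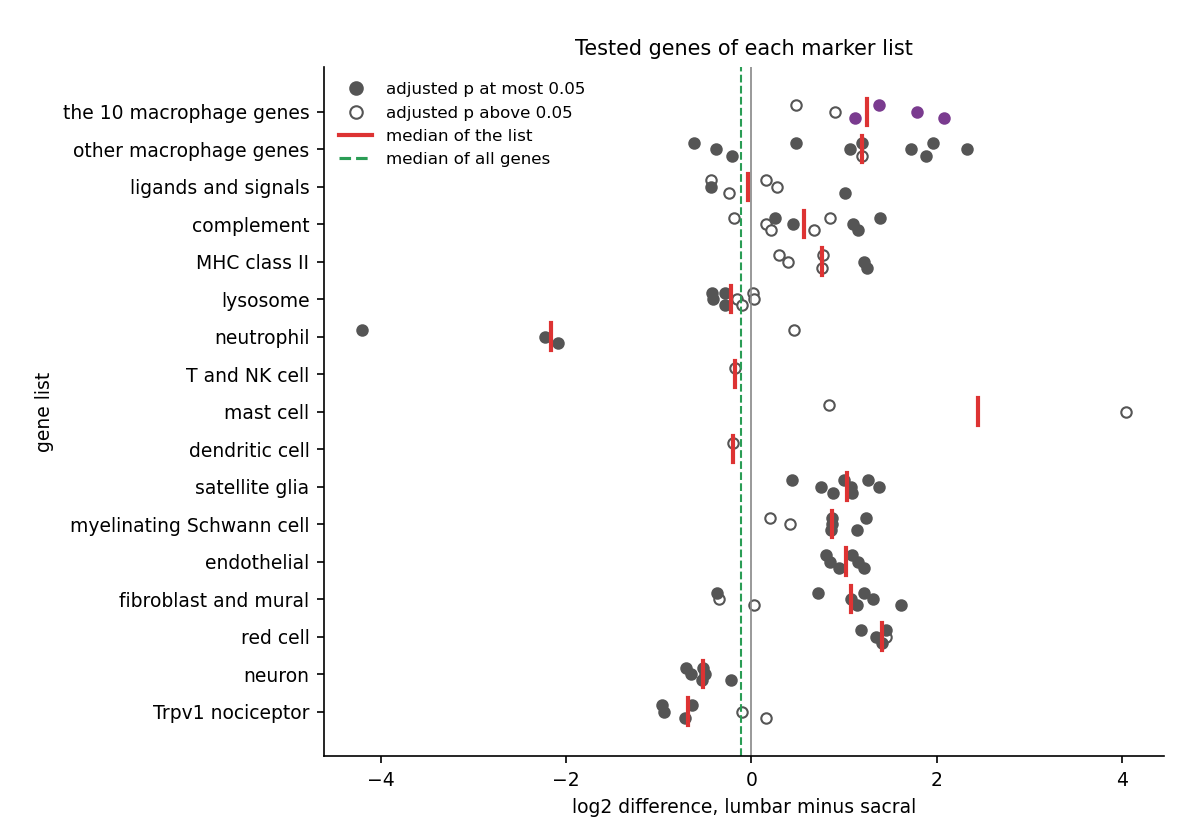
Log2 difference, lumbar minus sacral (horizontal axis), of every tested gene in each list (vertical axis), filled where the adjusted p is at most 0.05, with a red bar at the list's median and a dashed green line at the median of all genes, -0.11. The macrophage genes (median 1.25) lie on the lumbar side with satellite glia, Schwann, endothelial and red cell genes, and neuronal genes (median -0.53) on the sacral side. Nothing is read from the macrophage median, since the filled macrophage genes passed the filter through lumbar groups alone.

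Promoter sequence was read for those of the 10 genes where it was available. The RefSeq table used here (build GRCm38.p6) holds the 250 bases before the start of 8 of the 10 genes. GAGGAA, the core that PU.1 binds, was searched on both strands. It was found in 6 of the 9 windows of these 8 genes (Ptprc, Mrc1, C1qb, C1qc, Cd68 and Aif1) and in 23.3% of all 32851 windows. The windows of the called genes Mrc1 (chr2:14229164-14229413, plus strand), C1qc (chr4:136892915-136893164, minus strand) and Mpeg1 (chr19:12460520-12460769, plus strand) are shown 5′ to 3′, with capitals for GAGGAA or its complement TTCCTC. Mrc1 has 3 matches, C1qc 1 and Mpeg1 none, and a match is a match of letters, not a binding site.
Mrc1: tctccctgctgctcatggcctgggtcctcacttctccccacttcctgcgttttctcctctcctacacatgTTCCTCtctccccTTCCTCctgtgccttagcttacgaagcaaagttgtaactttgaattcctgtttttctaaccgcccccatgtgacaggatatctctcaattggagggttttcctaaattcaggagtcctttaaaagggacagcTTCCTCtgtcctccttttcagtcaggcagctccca
C1qc: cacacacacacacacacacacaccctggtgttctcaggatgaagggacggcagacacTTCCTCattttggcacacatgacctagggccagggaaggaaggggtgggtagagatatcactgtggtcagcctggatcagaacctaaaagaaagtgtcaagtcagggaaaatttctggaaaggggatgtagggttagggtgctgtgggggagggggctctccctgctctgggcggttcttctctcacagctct
Mpeg1: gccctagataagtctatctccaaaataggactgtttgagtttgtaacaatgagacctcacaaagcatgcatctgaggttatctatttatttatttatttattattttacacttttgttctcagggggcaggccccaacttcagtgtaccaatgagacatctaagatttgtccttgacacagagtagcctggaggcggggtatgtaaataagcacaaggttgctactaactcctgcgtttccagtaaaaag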

How the data were processed

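The authors deposited expression as log2 RPKM, with 1 column per library and 0 columns of other samples. By the study's methods and processing notes, reads were aligned to mm9 with Subread, uniquely mapped reads were counted on Ensembl genes with featureCounts, and TMM and voom scaling were applied. No number was added before the log, so genes without reads are empty cells. Low values step by whole reads, from which reads were worked back: 99.19% of 430293 values came out whole (within 0.01 of a read or a share of 2e-06).

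Tests used limma 3.58.1 with statmod 1.5.0 in R 4.3.3: means of the 4 groups, donor as a random block by duplicateCorrelation, a trend of variance on mean, and adjustment after Benjamini and Hochberg at 0.05, on genes with a mean log2 value above -1 in a group with at least 3 values. Single genes were compared over donors with exact sign-flip permutation tests (Python 3.11.15). The limma fit was tested on simulated data. Alternatives changed the filter, pseudocount, empty cells, donor block, scaling, weights and donors. TMM factors for them were computed by code written for this purpose. Libraries of 1 donor share their animal numbers in the labels. Their deviations from group means correlated at 0.136 on average (0.023 to 0.242, 10 pairs), against -0.034 for different donors.

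The 10 genes and the marker lists were chosen with earlier results of these data known. Genes named from a list are its 2 highest by mean and those called where 5 or fewer were. A few such genes are not reported here. Other genes, among them those named as called in longer counts, were chosen after their values were seen. Positions are from GENCODE vM1 on NCBIM37 (mm9), and 37205 of 37620 genes matched it.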

Additional observations from a re-analysis of the deposited data

Results flagged for a closer look

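Of 35 sets of 4 or 5 libraries examined (a gene in a group of 1 sex and level), 2 held a library that stood apart by its gap to the next relative to the group's range, where chance gives about 1 in 20. C1qc in female sacral donor 5 was -0.98 log2 RPKM, above the next of 4 libraries at -2.47, on 66 reads. This is the donor in which C1qc was higher in sacral by 1.37 on the log2 scale. Cd68 in male sacral donor 1 was -0.31, below the next of 5 libraries at 0.59, on 52 reads. The lumbar library of the same donor was the lowest of the lumbar libraries for Cd68, at -1.05.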

How the results depend on the processing

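All 6 tested genes were higher in lumbar libraries in each of the 24 other settings tried over both sexes in which they were tested. The number of the 10 genes called stayed between 3 and 6 except in 2 settings. The count of 6 came with no filter and voom with TMM factors, where all 10 were tested. Of the 2 exceptions, a stricter filter (mean above 0) left 2 genes to test and called 1, C1qb. Leaving out both male 3 and female 4 called 1. Mrc1 was called wherever it was tested (24 settings with the reported one, log2 difference 0.59 to 1.97). C1qb was called in 9 of 25 and Cd68 in 0 of 25 (limma, adjusted p from 0.05 to 0.59), and leaving out 1 donor at a time gave 3 to 5 called genes. Of all genes tested, 8.71% (voom, total reads) to 21.3% (voom, TMM factors) were called higher in lumbar across the settings. As with the reported count, nothing is read from these counts. In males the 2 calls fell to 0 with the stricter filter and 1 with both donors left out, and ranged from 1 (without male 3) to 2 without single donors. Of all genes in males, 10% were called higher in lumbar with the stricter filter and 5.76% with both donors left out. Without single donors that share was 5.61% to 10%. In females the 2 calls fell to 0 with the stricter filter, a pseudocount of 1, quantile normalization, both donors left out, or no filter and voom with TMM factors, and to 1 with no filter and with no filter and empty cells at 0.5 reads. Without single donors they ranged from 0 (without female 3 or female 4) to 3. Of all genes in females, 5.5% to 8.69% were called higher in lumbar without single donors, and 4.88% to 9.46% in the other settings named. Cd68 in males turned to -0.03 with voom and total reads.

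For the donor pairing, 4 genes were called over both sexes without the replicate block and 4 with it as a fixed effect. Of all genes, 13.2% and 15.1% were called higher in lumbar in these 2 fits. Without the block the 2 female calls fell to 0, where 6.01% of all genes were called higher in lumbar in females.

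Cx3cr1, C1qa and C1qc each had libraries with 2 reads or fewer, and the part of depth in this was not tested. The limit given for empty cells covers counting error only.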
